A study of Homo sapiens with 8 samples.

Results

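The regions described here are narrow stretches of chromatin between genes at which the antibody against RBBP4 recovered different amounts of DNA after CSNK2B knockdown. A region belonged to the set when it was under 1000 bp wide and touched no RefSeq protein-coding gene span extended by 3000 bp on both sides. The set held 13918 of the 35154 regions in the authors' RBBP4 table, or 39.6% (95% exact binomial interval 39.1 to 40.1). The remaining regions comprised 11333 narrow ones inside gene bodies, 7829 at gene ends, 1876 wide ones away from gene ends and 198 in a segment of chromosome 8 (113 to 128 Mb) not analysed here. The rule used width and position only, not the measured ratio. Width was still related to direction: 96.6% of the wide regions away from gene ends were higher after knockdown, against 54.5% of the set.

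The cells were NCI-H69, an established line of human small cell lung cancer that grows in suspension. One arm received siRNA against CSNK2B, the regulatory subunit of the protein kinase CK2, and the other received a non-targeting siRNA. Both arms were fixed with formaldehyde 48 h after transfection, and each had 1 library immunoprecipitated for RBBP4, so no difference below has a replicate check. The labels record no genetic change in either arm beyond those of the line itself, and no file used here measures how far CSNK2B was reduced. The arms were read from the column names alone, and every direction would turn if those names were swapped.

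RBBP4 is a histone-binding WD-repeat protein shared by several chromatin complexes. It is a subunit of the NuRD and Sin3 deacetylase complexes, of Polycomb repressive complex PRC2 and of the chromatin assembly factor CAF-1. It binds no DNA sequence on its own, and these complexes bring it to promoters and to distal elements alike. P300, profiled in separate libraries of the same design, is a histone acetyltransferase found at active promoters and enhancers. Regions between protein-coding genes contain distal elements, repeats, long noncoding RNA (lncRNA) genes and the small genes that RNA polymerase III transcribes, among them those of transfer RNA (tRNA).

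The start windows of 7 lncRNA genes are shown because starts of lncRNA genes were among the positions at which nearly all regions of the set were higher after knockdown. Each window runs from 250 bases before to 50 bases after the RefSeq start (GRCh38.p14) and is printed along the gene's strand, 5′ to 3′, with every CG dinucleotide in capitals. They were chosen after their values were seen. The first 5 lay under regions that were higher after knockdown, and the last pair under regions that were lower. The positions are chr14:97978075-97978374 (minus strand) for LINC01550, chr11:65497488-65497787 (plus) for MALAT1, chr13:50081992-50082291 (minus) for DLEU2, chr6:19804710-19805009 (minus) for LNC-LBCS and chr21:16070238-16070537 (plus) for MIR99AHG. LINC00560 lies at chr13:88626603-88626902 (plus) and LINC01506 at chr9:68546553-68546852 (minus).
LINC01550: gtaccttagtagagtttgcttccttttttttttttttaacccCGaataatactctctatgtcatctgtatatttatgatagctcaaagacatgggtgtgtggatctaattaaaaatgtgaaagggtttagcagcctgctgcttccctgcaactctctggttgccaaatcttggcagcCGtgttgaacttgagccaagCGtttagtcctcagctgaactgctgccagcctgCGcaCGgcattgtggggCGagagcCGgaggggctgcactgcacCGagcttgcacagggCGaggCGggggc
MALAT1: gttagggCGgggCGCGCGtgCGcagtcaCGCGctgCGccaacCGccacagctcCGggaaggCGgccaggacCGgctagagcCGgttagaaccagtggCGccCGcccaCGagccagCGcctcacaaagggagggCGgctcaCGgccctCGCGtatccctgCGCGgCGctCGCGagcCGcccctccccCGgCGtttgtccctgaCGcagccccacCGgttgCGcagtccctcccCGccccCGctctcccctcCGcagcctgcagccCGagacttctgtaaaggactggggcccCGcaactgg
DLEU2: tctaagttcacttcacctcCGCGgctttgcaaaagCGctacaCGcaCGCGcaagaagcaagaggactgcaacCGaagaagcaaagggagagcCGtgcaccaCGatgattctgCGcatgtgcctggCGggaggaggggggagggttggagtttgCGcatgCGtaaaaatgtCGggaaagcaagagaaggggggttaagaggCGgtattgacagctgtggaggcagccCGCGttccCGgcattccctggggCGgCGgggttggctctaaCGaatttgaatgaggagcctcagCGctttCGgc
LNC-LBCS: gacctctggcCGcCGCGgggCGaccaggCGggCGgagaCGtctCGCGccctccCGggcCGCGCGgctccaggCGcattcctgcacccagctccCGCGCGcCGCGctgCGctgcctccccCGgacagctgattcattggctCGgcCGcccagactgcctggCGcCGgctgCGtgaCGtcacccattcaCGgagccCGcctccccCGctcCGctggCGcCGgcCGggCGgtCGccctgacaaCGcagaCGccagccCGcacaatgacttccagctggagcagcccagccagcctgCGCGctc
MIR99AHG: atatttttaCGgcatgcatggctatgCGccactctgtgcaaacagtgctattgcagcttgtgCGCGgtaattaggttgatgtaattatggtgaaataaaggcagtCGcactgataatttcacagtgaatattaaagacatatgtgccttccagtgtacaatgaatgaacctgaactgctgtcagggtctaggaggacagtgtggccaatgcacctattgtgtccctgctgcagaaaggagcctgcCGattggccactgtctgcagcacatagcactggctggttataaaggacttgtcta
LINC00560: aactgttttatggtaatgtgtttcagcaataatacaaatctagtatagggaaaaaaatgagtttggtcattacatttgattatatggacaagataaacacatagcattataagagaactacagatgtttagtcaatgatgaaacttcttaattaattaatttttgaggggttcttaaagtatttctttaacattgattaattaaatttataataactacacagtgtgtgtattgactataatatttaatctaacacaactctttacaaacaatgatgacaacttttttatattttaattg
LINC01506: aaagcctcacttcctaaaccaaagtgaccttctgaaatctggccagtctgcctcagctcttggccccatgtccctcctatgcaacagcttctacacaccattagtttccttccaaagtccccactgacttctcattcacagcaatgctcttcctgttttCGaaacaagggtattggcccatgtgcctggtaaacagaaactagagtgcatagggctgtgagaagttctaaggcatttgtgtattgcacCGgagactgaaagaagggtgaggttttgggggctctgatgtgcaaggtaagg
MALAT1 and LNC-LBCS windows were dense in CG, whereas the LINC00560 window held none and was rich in A and T.

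A further sequence is printed because MIR4289 was the only microRNA hairpin that a region of the set overlapped. The mature RNA lies at chr9:88745877-88745895 on the minus strand, and its seed (bases 2 to 8) is in capitals.
hsa-miR-4289: gCAUUGUGcagggcuauca

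The authors' table lists only regions with a deposited p-value under 0.05 (the highest was 0.0493), so regions above that limit are not in it. In the set, 7579 regions were higher after knockdown and 6339 were lower. The higher ones made up 54.5% (53.6 to 55.3), against 68.8% of all listed regions, and the lower ones 45.5%, against 31.2%. A region's name records the arm in which its peak was called, and that was the higher arm for 13916 of the 13918. RPKM values scale reads to region length and to a total, and the totals behind them were 1207945 knockdown and 833181 control reads. These totals were worked out from the RPKM values and may not be whole-library depths. The ratio of knockdown to control RPKM lies at -0.58 (log2) relative to the authors' log2 fold change. With 1 added to each RPKM, 7146 regions were at least 2-fold higher after knockdown, or 51.3% against 64.9% of all listed regions. All 6339 lower regions were at least 2-fold lower, as were all 10974 lower regions in the list (31.2%). The count of lower regions past the fold therefore only repeats their direction. An adjusted p under 0.05 in the authors' deposited table marked 4754 as higher (34.2%, against 48.3% of all listed regions) and 1821 as lower (13.1%, against 8.94%). That p-value compares 2 libraries and says nothing of the spread between cultures.

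The higher and lower regions held few reads. Higher regions had a median of 18 reads in the knockdown library (quartiles 12 and 27) and 3 in the control library (2 and 6), with a median log2 ratio of 1.81. Lower regions had a median of 2 reads in the knockdown library (1 and 3) and 12 in the control library (10 and 14), with a median log2 ratio of -2.76. The median RPKM of higher regions was 34.8 after knockdown and 9.09 in the control. The median RPKM of lower regions was 4.38 after knockdown and 36.2 in the control. No reads fell in the control library for 410 higher regions, and none in the knockdown library for 569 lower ones.

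**Figure D1:**
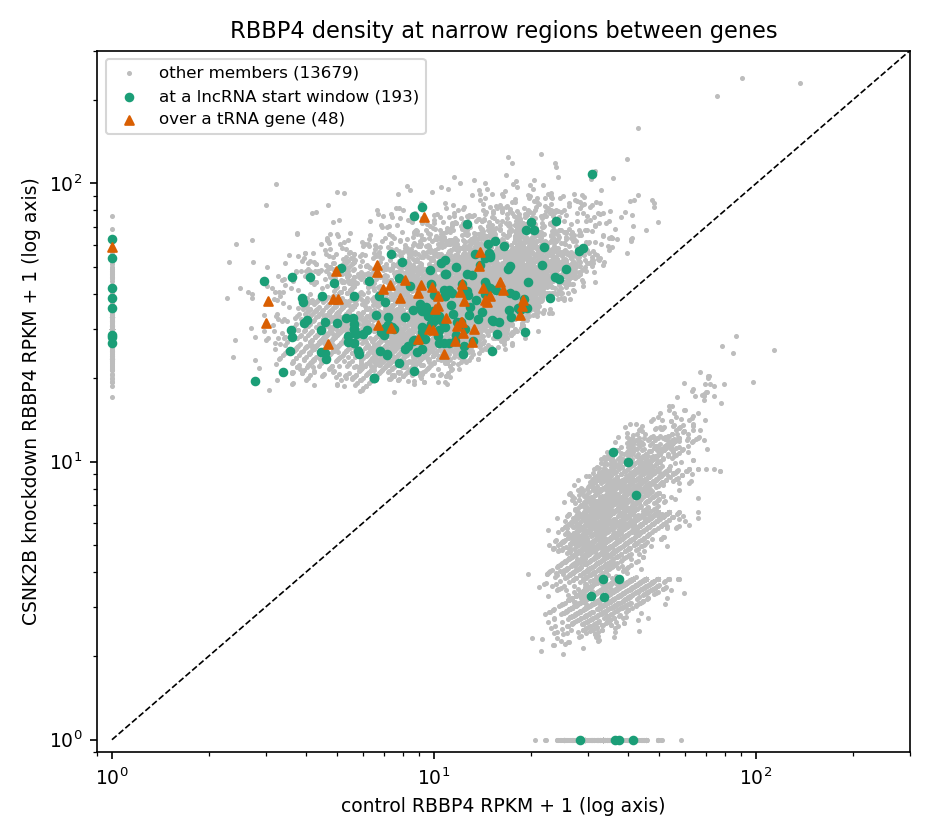
RBBP4 density of each region of the set, as RPKM plus 1 on log axes, with the knockdown library on the vertical axis and the control library on the horizontal axis. Green points overlap a lncRNA start window, orange triangles overlap a tRNA gene, and grey points are all others. The empty band along the dashed line of equality is where the table lists no region, and all 48 triangles lie above it.

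Reads over both libraries split the set unevenly. Of the 5073 regions with at least 20 reads over both libraries, 4214 were higher (83.1%, 82.0 to 84.1). Of the 8845 with fewer reads, 3365 were higher (38.0%, 37.0 to 39.1). This split is not independent of direction, because higher regions reach 20 reads through the knockdown library, whereas the upper quartile of control reads in lower regions was 14. Shares with at least 20 reads are therefore read only against one another. Other classes of region had more higher regions at the same depth. With at least 20 reads, 88.3% (87.4 to 89.2) of narrow regions inside gene bodies and 98.5% (98.1 to 98.8) of regions at gene ends were higher. Without the depth limit, those shares were 64.4% and 93.3%. Among the higher regions the median ratio differed little between classes, at 1.81 (log2) between genes, 1.81 inside gene bodies and 1.93 at gene ends. Classes of region share the same 2 libraries, and their difference was not tested.

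The genes of tRNAs, which carry amino acids to the ribosome and are read by RNA polymerase III from promoters inside the gene, were overlapped only by regions of the set that were higher after knockdown. Of 443 nuclear tRNA genes in RefSeq, 52 were overlapped by 48 regions of the set. All 48 were higher after knockdown, or 100% (92.6 to 100), and 35 had an adjusted p under 0.05 in the authors' deposited table, where 34.2% of the set were marked as higher. Their reads ranged over 10, 25 and 52 (lowest, median, highest) after knockdown and over 0, 4 and 10 in the control, so the ranges met only at 10 reads. Within 500 bp of a tRNA gene, 69 of 69 were higher. On chromosomes other than 6, which held 17 of the 48, 31 of 31 overlapping regions were higher. With at least 20 reads, 39 of 39 regions over tRNA genes were higher, against 83.1% of the set. Listed regions outside the set gave the same direction at tRNA genes, 61 of 61. Shares outside the set were high in general, at 93.3% for gene ends and 96.6% for wide regions away from them. Narrow regions inside gene bodies had 64.4%. The overlapped genes covered 19 of the 22 one-letter codes in the gene names.

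Single tRNA genes are given next, chosen after their values were seen, except where a rule of size or of crowding had named them. At TRW-CCA1-1, a tryptophan tRNA gene, the region chr17:8220564-8221473 held 52 knockdown and 3 control reads. Scaled to the totals behind the RPKM values, the ratio was 12.0 (95% exact interval 3.87 to 59.9). At TRL-TAA4-1, a leucine tRNA gene, chr6:27230068-27230914 held 51 knockdown and 4 control reads, a ratio of 8.79 (3.23 to 33.5). At TRQ-TTG1-1, a glutamine tRNA gene, chr17:49192520-49192874 held 25 knockdown and 0 control reads, at least 5.75-fold higher against a floor of 3 reads per library. A neighbouring region within 500 bp of the same gene, chr17:49191664-49192291, held 34 knockdown and 5 control reads. TRW-CCA1-1 had the most knockdown reads of the class, and TRQ-TTG1-1 had the class median of 25. Near TRR-ACG2-4, an arginine tRNA gene, 44 reads fell in the knockdown library and 7 in the control library. tRNA genes occur in near-identical copies, so the read assigned to one copy could come from another.

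Regions at other small noncoding genes were mostly higher too. All 8 regions over genes of small nuclear RNAs, the RNA parts of the spliceosome, were higher (63.1 to 100), as were the 11 within 500 bp of one. RNU5A-1 (U5) had 28 knockdown and 2 control reads. RNU6ATAC, of the minor spliceosome, had 29 knockdown and 3 control reads. RNU6-8 (U6) had 17 knockdown and 0 control reads, at least 3.91-fold higher. The knockdown library was the higher one for these 3 genes, and their control counts did not exceed 3 reads. RefSeq puts SNAR-C3, which encodes a small RNA bound by NF90, in the same class, and it had 44 knockdown and 17 control reads. Genes of U1 variants (RNVU1) and of U6 are repeated in the genome and their reads may be shared between copies.

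Of the 4 Y RNA genes, whose polymerase III transcripts bind the Ro60 protein, 3 had a region within 500 bp. RNY4 had 27 knockdown and 1 control reads, RNY1 had 44 knockdown and 7 control reads, and RNY5 had 31 knockdown and 5 control reads. All of these regions were higher, and none of them reached the Y RNA gene itself. The vault RNA gene VTRNA1-1 had 19 knockdown and 7 control reads. Its ratio on the RPKM scale was 1.87, with an interval that spanned 1 on that scale (0.754 to 5.27). Near SNORD3A and SNORD3B-2, copies of the U3 RNA gene used in ribosomal RNA processing, reads numbered 35 and 35 after knockdown and 2 and 1 in the control. Of 8 regions within 500 bp of a small nucleolar RNA gene, 6 were higher. At MIR4289, printed above, the region had 24 knockdown and 5 control reads, and a second region within 500 bp had 25 knockdown and 4 control reads. Of 8 regions within 500 bp of a microRNA gene, 6 were higher, among them one near MIR181B1 with 45 knockdown and 6 control reads. The region near the ribosomal RNA repeat RNA45SN2 (chr21:8219765-8220261) had 143 knockdown and 37 control reads, a ratio of 2.67 (1.85 to 3.94). That repeat is present in many copies, and its reads may be shared between them. In contrast, LOC102724207, listed by RefSeq as a miscellaneous RNA gene, had 10 knockdown and 32 control reads.

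Starts of lncRNA genes also stood on the higher side. Of the 193 regions that overlapped a start window, 182 were higher (94.3%, 90.0 to 97.1) and 11 were lower. An adjusted p under 0.05 in the authors' deposited table marked 138 of the 193 as higher and 4 as lower, against 34.2% and 13.1% of the set. With at least 20 reads, 122 of 124 were higher, against 83.1% of the set. Regions inside a lncRNA gene but away from a start window gave 2027 of 3565 higher, or 56.9% (55.2 to 58.5). Regions touching no noncoding gene gave 5195 of 9838, or 52.8% (51.8 to 53.8). Pseudogenes gave 70 of 159, or 44.0% (36.2 to 52.1). The share at lncRNA starts lay close to that at protein-coding gene ends, 93.3% (92.7 to 93.9). The classes are unlike, since gene-end regions were of any width and lay within 3000 bp of either end of a gene. With tRNA neighbourhoods and lncRNA starts taken out, 7331 of the remaining 13659 regions were higher, or 53.7%.

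**Figure D2:**
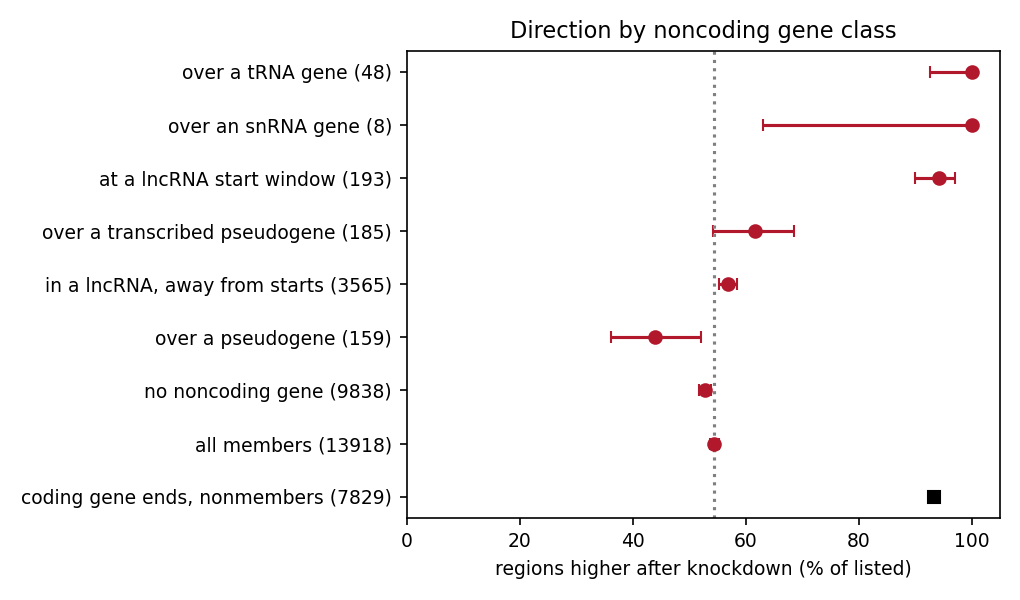
Percentage of listed regions that were higher after knockdown, by the noncoding gene they overlap, with 95% exact binomial intervals and the number of regions in brackets. Round points are regions of the set and the square is regions of any width at protein-coding gene ends, whose interval is narrower than the symbol. The dotted line is the whole set at 54.5%, and the top 3 rows lie at 94.3% or more.

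Among lncRNA starts with most reads, LOC105377000 (chr3:25830713-25831445) had 72 knockdown and 5 control reads, a ratio of 9.93 (4.06 to 31.5). SNCAIP-AS3 (chr5:122478631-122479504) had 63 knockdown and 10 control reads, a ratio of 4.35 (2.21 to 9.50). LOC107986997 (chr9:40991807-40992488) had 88 knockdown and 17 control reads, a ratio of 3.57 (2.11 to 6.40). In each of these the interval lay above 1, and the knockdown library held at least 3 times the control density. They were chosen by reads, and no lower region of the set had over 60 reads. Their direction and intervals are therefore no added support.

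The printed windows add better known genes. LINC01550 had 47 knockdown and 0 control reads, at least 10.8-fold higher, and its adjusted p in the authors' deposited table was 1.34e-10. MALAT1, an abundant nuclear lncRNA of lung tumours, had 32 knockdown and 3 control reads, a ratio of 7.36 (2.30 to 37.5). DLEU2, the host gene of the miR-15a and miR-16-1 cluster, shares its start with DLEU1 and had 43 knockdown and 3 control reads, a ratio of 9.89 (3.16 to 49.8). LNC-LBCS also had 32 knockdown and 3 control reads. MIR99AHG, host of miR-99a and let-7c, had 45 knockdown and 8 control reads at its start, a ratio of 3.88 (1.81 to 9.53), and a region inside the gene had 36 knockdown and 0 control reads. On the lower side, LINC00560 had 0 knockdown and 11 control reads, at least 5.32-fold lower, and LINC01506 had 0 knockdown and 10 control reads, at least 4.83-fold lower. The regions over the 5 higher starts covered the whole window, and that over LINC00560 covered only 33 of its 300 bases.

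The windows under higher and lower regions differed in base composition. The 202 windows under higher regions had a median of 16.5 CG dinucleotides (quartiles 6 and 26) and 59% G and C. The 12 windows under lower regions had a median of 2 (1 and 6.25) and 40% G and C. Over all 12917 lncRNA windows the medians were 5 and 50%. GGGCGG, a core of Sp1-type GC boxes, was found on either strand in 41.6% of windows under higher regions, in 0 of the 12 under lower ones and in 25.5% of all lncRNA windows. CCAAT was found in 35.1% of windows under higher regions, 41.7% under lower ones and 34.5% overall. TATAAA was found in 8.91% under higher regions, 41.7% under lower ones and 15.1% overall. None of these 3 motifs contains another, and a match is only a run of letters. The windows under higher regions thus had more CG than lncRNA windows at large, and the 12 others are few. The part of base composition in the direction was not tested.

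The share of higher regions was smaller farther from protein-coding genes. Between 3000 and 10000 bp from the nearest gene 855 of 1365 regions were higher (62.6%). The share was 56.2% (54.4 to 57.9) between 30000 and 100000 bp, and 47.8% (46.0 to 49.6) between 300000 and 1000000 bp. Beyond 1000000 bp it was 43.2%, or 214 of 495. The median of 15 or 16 reads was nearly the same at every distance. With at least 20 reads the nearest bin had 88.2% higher and the farthest 67.9%. The median distance was 87239 bp for higher regions and 126186 bp for lower ones.

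**Figure D3:**
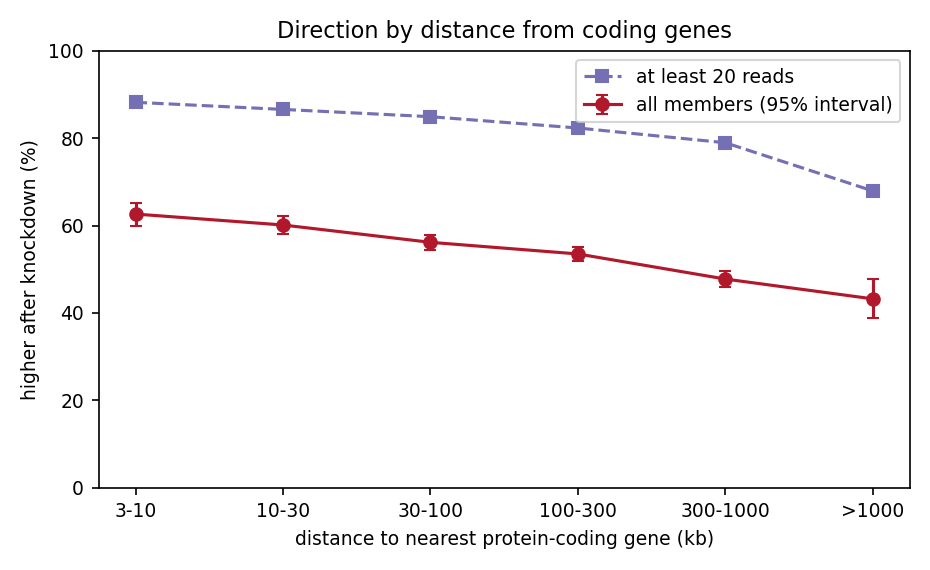
Percentage of regions of the set that were higher after knockdown, by distance in kb to the nearest protein-coding gene. Red circles are all regions with 95% exact binomial intervals, and purple squares are regions with at least 20 reads. Both series are lower at greater distance, with red at 62.6% in the nearest bin and 43.2% in the farthest.

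Nearby regions mostly shared their direction. Of 698 neighbouring pairs up to 2000 bp apart, 634 had the same direction (90.8%), 549 of them both higher. Between 2000 and 10000 bp apart it was 72.4% of 1270 pairs, and beyond 100000 bp 54.4% of 5852 pairs. The overall shares of higher and lower regions would give 50.4% of pairs alike if neighbours were unrelated. The most crowded 1 Mb of the genome, chromosome 6 from 27 to 28 Mb, held 34 regions in the tRNA and histone gene cluster, and 22 of them lay within 500 bp of a tRNA gene. Of the 34, 31 were higher, with 668 knockdown and 172 control reads. The next most crowded, chromosome 8 from 37 to 38 Mb next to ZNF703, held 28 regions, 24 of them higher, with 730 knockdown and 186 control reads. Chromosome 14 from 82 to 83 Mb, where the region with most reads lay 850945 bp from the nearest gene SEL1L, held 24 regions, 15 of them higher, with 596 knockdown and 269 control reads.

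The smallest p of the set in the authors' deposited table, 1.63e-18, belonged to chr20:53621420-53622268, 23718 bp from ZNF217, which encodes a zinc-finger repressor amplified in several cancers. It had 94 knockdown and 3 control reads, a ratio of 21.6 (7.17 to 107). Next to TLE1, a Groucho-type corepressor, chr9:81693489-81694291 lay in the divergent lncRNA TLE1-DT and had 114 knockdown and 11 control reads, a ratio of 7.15 (3.85 to 14.7). A region 107994 bp from MECOM, which encodes the zinc-finger factor EVI1, had 88 knockdown and 5 control reads, a ratio of 12.1 (5.01 to 38.3). A region 20437 bp from UBL3 had 81 knockdown and 4 control reads, and one 100779 bp from AGR3, a protein disulfide isomerase relative, had 108 knockdown and 10 control reads. In these regions the knockdown library held at least 7 times the control density.

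The 8 higher regions with the largest ratios, among those at or above the median level of the set, had no control read. LINC01550 had most reads among them, with 47 knockdown reads. A region 25413 bp from GTF2IRD1 had 39 knockdown reads, at least 8.97-fold higher, and one 54661 bp from DACH2 on chromosome X had 34, at least 7.82-fold higher. A region 67404 bp from CLIC5, a chloride channel family member, had 29, at least 6.67-fold higher. The others were the region inside MIR99AHG, TRQ-TTG1-1, and regions nearest PIK3C3 with 23 reads and IMMP2L with 19. The 2 regions with most reads lay within 1 Mb of the chromosome 8 segment left out above, with 192 and 164 knockdown reads, against 79 and 41 control reads. After the ribosomal repeat came a region 82217 bp from EPDR1 with 117 knockdown and 18 control reads. A region 355541 bp from NUDT12 had 112 knockdown and 13 control reads.

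Lower regions rested on fewer reads. By RPKM with 1 added, a ranking that region width affects where a library has 0 reads, the first was chr1:222001161-222001474, 259072 bp from DUSP10, a MAP kinase phosphatase gene, with 0 knockdown and 15 control reads, at least 7.25-fold lower. The 7 that followed, nearest PIK3C3, PLOD2, NSG2, RAD23B, FSCB, DSC3 and CELF2, had 0 reads after knockdown and 12 or 13 in the control. The smallest p of a lower region in the authors' deposited table belonged to chr21:27543658-27544171, with 0 knockdown and 17 control reads, at least 8.22-fold lower. A region 23550 bp from the olfactory receptor gene OR10H4 had 1 knockdown and 20 control reads, a control to knockdown ratio of 29.0 (4.64 to 1202). The lower regions with most reads had smaller ratios. Nearest SPATA31A6 on chromosome 9, 17 reads fell in the knockdown library and 43 in the control library, a control to knockdown ratio of 3.67 (2.05 to 6.86). Nearest CCNYL1B on chromosome 16, the counts were 17 knockdown and 38 control reads, a control to knockdown ratio of 3.24 (1.79 to 6.12).

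The 5 regions farthest from a protein-coding gene lay beside the centromeres of chromosomes 22 and 1. On chromosome 22, chr22:11310376-11310673 had 12 knockdown and 3 control reads, and chr22:11706856-11707220 had 19 knockdown and 1 control reads. On chromosome 1 near 125 Mb, 3 regions had 8, 4 and 7 reads after knockdown, against 29, 14 and 19 in the control. The chromosome 22 sites were higher and all of the chromosome 1 sites lower, and reads in such repeats may come from other copies.

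Regions were next grouped by the nearest protein-coding gene, which is a position and not a known target. Small cell lung cancer is usually neuroendocrine, and genes of that programme include NEUROD1 and NKX2-1, encoding lineage transcription factors, SYT1 and SNAP25, encoding parts of the secretory machinery, and NCAM1, encoding a cell adhesion molecule. Regions nearest 17 of the 34 listed neuroendocrine genes numbered 50, and 10 were higher while 40 were lower. The higher share was 20% (10.0 to 33.7), against 54.5% in the whole set. Their median log2 ratio was -2.56, against 1.08 in the whole set, with 16.5 and 16 reads as the medians. Adjusted p in the authors' deposited table was under 0.05 for 6 higher and 14 lower ones of the 50, against 34.2% and 13.1% of the set. With at least 20 reads, 6 of 19 were higher, against 83.1% of the whole set. Within 100 kb of the genes, 3 of 25 were higher. Listed regions inside these genes or within 3000 bp of them, which are outside the set, were higher in 38 of 60 (63.3%, 49.9 to 75.4). For comparison, 64.4% of all narrow regions inside gene bodies and 93.3% of all regions at gene ends were higher.

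Values near neuroendocrine genes, named after they were seen, were mostly at or below 4 reads after knockdown. The region 251076 bp from NCAM1 had 0 knockdown and 11 control reads, at least 5.32-fold lower. Near PCSK2, a prohormone convertase gene, the counts were likewise 0 knockdown and 11 control reads, and near SNAP25 they were 0 knockdown and 9 control reads. A region 23720 bp from PROX1, a homeobox gene, had 2 knockdown and 17 control reads, a control to knockdown ratio of 12.3 (2.93 to 110). The 3 regions nearest NKX2-1 had 4, 1 and 2 reads after knockdown, against 14, 10 and 12 in the control. One region 104029 bp from NEUROD1 had 33 knockdown and 6 control reads, a ratio of 3.79 (1.57 to 11.1), whereas the other two near that gene had 1 and 6 knockdown reads, against 9 and 18 control reads. So regions nearest NCAM1, PCSK2, SNAP25, PROX1 and NKX2-1 were all lower, and those nearest NEUROD1 were divided.

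**Figure D4:**
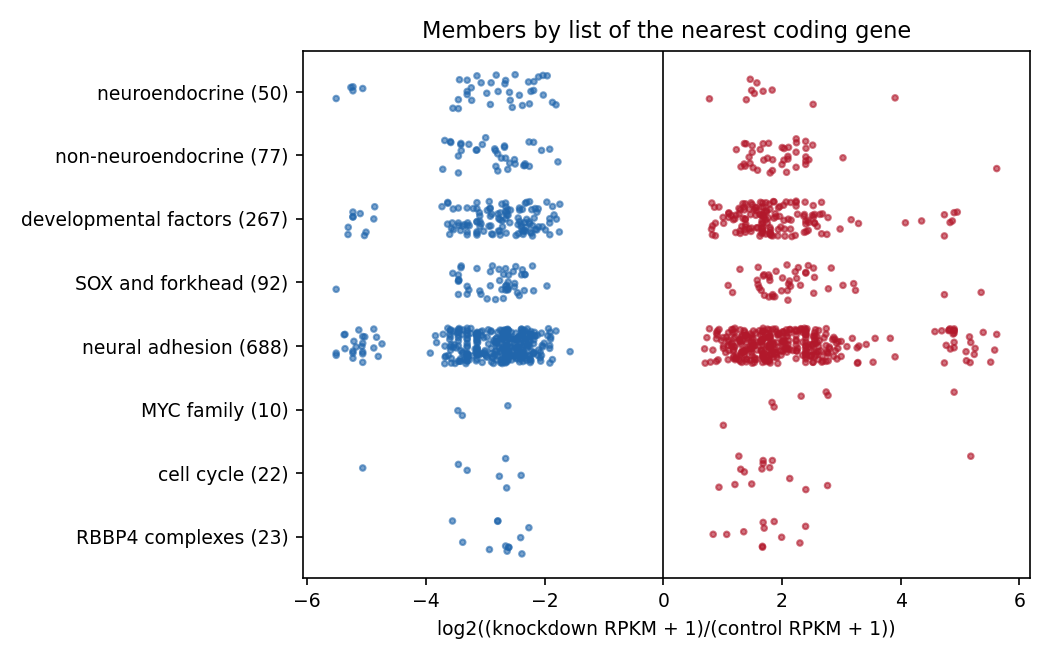
Log2 ratio of knockdown to control RPKM (1 added to each) for regions grouped by a list of the nearest protein-coding gene, with the number of regions in brackets. Each point is 1 region, red where higher and blue where lower after knockdown, with vertical scatter only for legibility. The neuroendocrine row has 40 blue and 10 red points, and the empty centre is where the table lists no region.

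The other lists were nearer to the set as a whole. Genes of the non-neuroendocrine state gave 41 of 77 higher (53.2%, 41.5 to 64.7), developmental transcription factors 145 of 267 (54.3%, 48.1 to 60.4) and neural adhesion genes 339 of 688 (49.3%, 45.5 to 53.1). SOX and forkhead genes gave 44 of 92, and 26 of the 27 with at least 20 reads were higher. Genes of RBBP4 complexes gave 11 of 23, cell cycle genes 15 of 22 and the listed MYC family genes MYCN, MGA and MLXIPL 7 of 10. No region was nearest a gene of CK2 itself.

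Regions with most reads in each list were higher. Choosing by reads favours higher regions, since no lower region of the set had over 60 reads, against up to 271 in higher ones. The direction of these picks is therefore no finding about their genes. A region 20839 bp from CDKN1A, the p21 inhibitor of cyclin-dependent kinases, had 86 knockdown and 8 control reads, a ratio of 7.41 (3.60 to 17.7). Inside CDKN2B-AS1, 55418 bp from the inhibitor gene CDKN2B, the counts were 54 knockdown and 10 control reads, a ratio of 3.72 (1.88 to 8.20). For both cell cycle inhibitors the interval lay above 1. Choosing by reads from regions already listed for a low p-value favours such intervals, so they are no added support. A region 69990 bp from MEIS1, a homeobox partner of HOX proteins, had 81 knockdown and 12 control reads, a ratio of 4.66 (2.52 to 9.38). This developmental neighbour was likewise higher. A region 3442 bp from TWIST1, a mesenchymal factor, had 43 knockdown and 7 control reads, one 37553 bp from SOX2 had 41 knockdown and 6 control reads, and one 697313 bp from CDH2 had 65 knockdown and 10 control reads. A region 453522 bp from JARID2, a PRC2 cofactor, had 75 knockdown and 10 control reads, a ratio of 5.17 (2.66 to 11.2). A region 25477 bp from MYCN had 17 knockdown and 2 control reads, a ratio of 5.86 (1.39 to 52.3).

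P300 regions seldom coincided with the set. Of the 13918 regions 102 overlapped a listed P300 region by at least 1 bp, or 0.733%, which is 0.498% of the 20496 listed P300 regions. Narrow regions inside gene bodies gave 92 of 11333 (0.812%) and regions at gene ends 92 of 7829 (1.18%). Both tables hold only regions that passed a p-value limit, so shared sites outside either table are not counted. Of the 102, the RBBP4 and P300 directions were the same in 47 (46.1%, 36.2 to 56.2). P300 was higher in 40 (39.2%), against 34.7% of all listed P300 regions. RBBP4 higher and P300 lower was the most frequent combination, with 36, followed by both lower with 26 and both higher with 21. RBBP4 lower with P300 higher had 19. Among the 102, RBBP4 was higher in 57 and P300 was lower in 62. The most frequent combination thus joined the more frequent direction of each protein. The order of the counts does not by itself show opposite behaviour. Whether the directions of the proteins were related was not tested. The labels give the P300 libraries a batch of their own.

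At the tRNA gene TRW-CCA1-1 both proteins were higher, with 25 knockdown and 8 control reads for P300. Near ARHGAP12 RBBP4 had 55 knockdown and 8 control reads, and P300 had 10 knockdown and 1 control reads. Near MRPS30 the directions were opposite, with RBBP4 at 82 knockdown and 12 control reads and P300 at 2 knockdown and 10 control reads. Near MARCHF10 they were opposite the other way, with RBBP4 at 3 knockdown and 17 control reads and P300 at 19 knockdown and 5 control reads. Near COX7C both were lower, with RBBP4 at 5 knockdown and 22 control reads and P300 at 6 knockdown and 18 control reads. P300 counts at these sites were low, and a pair of libraries gives no spread for them.

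At the limits of the rule, the 3 widest in the set, each 999 bp wide, had 94, 66 and 35 reads after knockdown, against 19, 13 and 10 in the control. The 3 next wider, which fell outside, had 69, 49 and 24 knockdown reads, against 10, 9 and 4 control reads. The 3 nearest to the distance limit, at 3002, 3005 and 3018 bp from a gene, had 4, 2 and 18 knockdown reads, against 14, 13 and 3 control reads. The 3 nearest outside it, at 2997 to 3000 bp, had 13, 24 and 10 knockdown reads, against 1, 3 and 1 control reads. All 6 beside the width limit were higher, whereas at the distance limit 2 of the 3 inside were lower and the 3 outside were higher.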

How the data were processed

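The RBBP4 and P300 immunoprecipitated libraries, 1 per arm and antibody, were analysed; the 4 input libraries were not used here. Per the file headers, the authors deposited for each region a width, RPKM in both libraries, a log2 fold change, a mean log2 CPM, a p-value and its adjusted value. Per the submitters' processing notes the build was GRCh38 and the tools named were ChIPseeker 1.28.3, DiffBind 3.4.11, MACS2 2.2.7.1, Bowtie2 2.4.5, Trim Galore 0.6.7 and FastQC; their settings are not given in the sources used here.

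Reads were recovered as RPKM times width, within 0.01 of a whole read, for 13850 regions; 66 were matched through identical deposited log2 values and 2 by a solved width. Totals behind the RPKM scale were 1207945 knockdown and 833181 control reads. A region is higher or lower as the authors' log2 fold change is positive or negative, and the RPKM ratio lies at -0.58 (log2) relative to it. Ratios of named regions use recovered reads over these totals, with 95% exact (Clopper-Pearson) intervals that cover counting error only; 0 reads were replaced by 3 for bounds. With 1 library per arm no test was made. Genes, start windows and the miRNA came from RefSeq GRCh38.p14. Recovery and overlaps were tested on simulated data. Python 3.11.15, numpy 2.4.6, pandas 2.3.3, scipy 1.17.1 and matplotlib 3.10.9 were used.

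The members and the 9 gene lists were chosen with earlier results of these data known. Regions were named by size and direction: per direction the 8 largest ratios at or above the median level of 20.7 RPKM, the 5 with most reads and the 5 smallest p-values. The rule also took the 5 farthest from a gene, the 3 most crowded 1 Mb bins, up to 4 per list by reads, up to 8 noncoding starts, up to 3 per combination with P300, and 3 on each side of the limits. Some of these are not reported here, and others are marked as chosen after their values were seen. Alternatives changed the pseudocount, depth, scaling, fold, width, gene flank, p limit and overlap.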

Additional observations from a re-analysis of the deposited data

How the results depend on the processing

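With at least 20 reads, 3781 regions of the set were at least 2-fold higher and 859 lower, so 81.5% of those past the fold were higher, against 53.0% without the limit. A fold of 4 gave 3091 higher and 6090 lower, or 33.7% higher. A width under 500 bp gave 4716 higher and 5020 lower (48.4% higher), and leaving out noncoding gene spans gave 4350 higher and 4255 lower. Lower regions thus outnumbered higher ones at a fold of 4 and at a width under 500 bp. The fold of 4 was applied to the RPKM ratio, which lies at -0.58 (log2) relative to the authors' log2 fold change. That offset makes the limit stricter for higher regions than for lower ones. A fold of 4 on the authors' scale was not counted. An adjusted p under 0.01 gave 2538 higher and 123 lower, and an adjusted p under 0.05 with width under 500 bp gave 2457 higher. P300 regions within 1000 bp numbered 326, against 102 that overlapped.

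The share of higher regions was 49.3% for width under 500 bp, 56.8% for width under 2000 bp, 55.4% and 53.6% for gene spans extended by 1000 and 10000 bp, 56.3% with at least 10 reads and 83.1% with at least 20. At lncRNA starts it was 98.4% with at least 20 reads, against 94.3% without that limit. The cause was not tested. The alternatives for these shares were chosen after seeing the data. Of 58 values under alternatives, 42 stayed close to those reported and 16 moved. No paired analysis was possible because each arm had 1 library, and for the same reason no replicate could be left out. Depth limits the regions with few reads most: the median was 16 reads over both libraries.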

Other observations

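Direction differed along the genome. Chromosomes 9, 13 and 18 had the lowest shares of higher regions in the set, at 48.2%, 48.6% and 48.7%, and chromosomes 22, 17 and 6 had high ones, at 67.1%, 66.6% and 63.0%. In 234 stretches of 10 Mb with at least 30 regions the share ran between 26.5% and 86.7%, with a median of 54.0%. Chromosome 7 from 50 to 60 Mb had 9 of 34 regions higher, and chromosome 20 from 20 to 30 Mb had 12 of 45. Chromosome 17 from 40 to 50 Mb had 39 of 45 higher, and chromosome 19 from 0 to 10 Mb had 42 of 49. Listed regions outside the set in those stretches were higher in 57.1%, 75%, 93.0% and 95.7%, in the order named.

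Counts by nearest gene also differed. NUDT12 was nearest to 28 regions, of which 25 were higher, and ZNF608 to 25, of which 22 were higher. ALG10B was nearest to 23 regions, of which 4 were higher, and PIK3C3 to 38, of which 14 were higher. These genes were named after their values were seen, and the differences between them were not tested.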
